A study of Mus musculus with 18 samples.

Results

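The comparison set cultured mouse cortical astrocytes that carried the designer receptor hM3Dq against the same kind of cells carrying EGFP, both lysed after 90 min in the ligand. It holds 6 of the 18 libraries of the study, 3 with hM3Dq and 3 with EGFP, taken by their labels, and all genes that passed a filter on low counts, 13584 of 22078 in the tables. hM3Dq is a human M3 muscarinic receptor altered to respond to synthetic ligands such as deschloroclozapine (DCZ), and it couples to the G protein Gq. EGFP is a fluorescent protein used as the control cargo. Every group received 8 µM DCZ for 90 min, 7 days after plasmid transfection with the reagent HilyMax, so the control cells saw the ligand too. No group carried the receptor without DCZ, so what the receptor does when stimulated and what it does by being present cannot be told apart. The labels name neither the promoter of the plasmid nor the share of cells transfected, nor the mouse strain or age. They number the libraries 1 to 3 without saying that these were separate cultures, so a p-value here rests on library-to-library spread that may be technical. Other groups used below are rM3Ds, a rat M3 receptor that couples to Gs, and hM4Di, a human M4 receptor that couples to Gi, both lysed at 90 min, and hM3Dq against mCherry, a red fluorescent control, lysed 3 days after the same 90 min in DCZ.

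Gq activates phospholipase C, which releases calcium from internal stores and activates protein kinase C, and both feed into the MAP kinase cascade. In astrocytes, native Gq-coupled receptors for glutamate, ATP and noradrenaline work through this route. Within an hour or so such signals switch on immediate-early genes, transcription factors such as Fos, Egr1 and Nr4a1 that need no new protein to be induced, followed by genes for secreted factors, matrix proteins and inhibitors of the pathway itself.

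Libraries held 16.6 to 20.1 M estimated counts with hM3Dq and 17.2 to 21.5 M with EGFP, where M is 1000000. Values below are CPM, a gene's counts in every 1000000 of its library's total, and a gene is called higher or lower when its p from edgeR's quasi-likelihood test, adjusted by Benjamini and Hochberg's method across the whole table, was below 0.05. The astrocyte list had 22 genes with summed CPM of 7940 to 9080 with hM3Dq, against 6480 to 8200 with EGFP. Vim alone gave most of these sums, with 5690, 5220 and 6310 CPM with hM3Dq and 4890, 4790 and 5140 CPM with EGFP. Means of the other members with hM3Dq ran from 0.0166 CPM for Gjb6 to 626 CPM for Clu. Aqp4, the water channel of astrocytes, had 103, 89.2 and 96.5 CPM in hM3Dq libraries, against 54.0, 92.8 and 105 CPM in EGFP libraries. Gfap, the classic filament of reactive astrocytes, had only 2.59, 2.19 and 2.64 CPM with hM3Dq, against 22.8, 2.02 and 2.39 CPM with EGFP, and Gjb6, the gene of connexin 30, reached at most 0.0577 CPM. Of these defining astrocyte markers Aqp4 was well detected in every library, Gfap was low but detected, and Gjb6 was at or near 0. Mouse Chrm3, at 12, 9.77 and 9.96 CPM with hM3Dq against 1.77, 6.34 and 10.2 CPM with EGFP, is the native gene and does not check the human transgene.

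EGFP 1 stood apart from the other control libraries, together with rM3Ds 2 and rM3Ds 3, on a first principal component holding 52.5% of the variance at 90 min. The 32 cell cycle genes summed to 401 to 486 CPM with hM3Dq and to 428 to 1440 CPM with EGFP, the 1440 being EGFP 1. Markers of fibroblasts and mural cells summed to 5300 to 7400 CPM with hM3Dq and to 5510 to 13400 CPM with EGFP, the highest again EGFP 1. Fn1 alone had 10300 CPM in EGFP 1, against 3780 and 3160 CPM in EGFP 2 and 3. Other members went both ways. Dcn had 467 CPM in EGFP 1 against 119 and 133 CPM, but Col1a2 had 216 CPM against 500 and 458 CPM. Markers of other types were low. The 15 microglial genes summed to 221 to 246 CPM with hM3Dq and to 176 to 268 CPM with EGFP, with Fcrls and Tyrobp at 0 in every hM3Dq library. The 16 neuronal genes gave 146 to 153 CPM with hM3Dq and 149 to 225 CPM with EGFP, the 14 oligodendrocyte lineage genes 101 to 103 CPM with hM3Dq and 98.5 to 114 CPM with EGFP, and the 12 endothelial genes 47.0 to 48.4 CPM with hM3Dq and 36.9 to 45.4 CPM with EGFP. In bulk RNA, fewer cells of a type and less RNA per cell cannot be told apart. Results that move without EGFP 1 are given with and without it.

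At 90 min 103 genes were higher with hM3Dq, 0.758% of those tested, and 4 were lower, 0.0294%. Of the higher genes 23 belong to a list of 40 immediate-early genes and 80 lie outside it. At least 2-fold higher were 59 genes, 37 of them outside the list, and at least 4-fold higher were 24, with 10 outside; no called lower gene reached 2-fold. The median log2 fold change was 0.99 over the 80 genes, 2.53 over the 23 immediate-early genes and -0.70 over the 4 lower genes, against -0.003 over all genes tested. Before adjustment the sides were closer in number, with 590 higher and 488 lower genes at p under 0.05, but at p under 0.001 there were 137 higher and 8 lower.

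**Figure D1:**
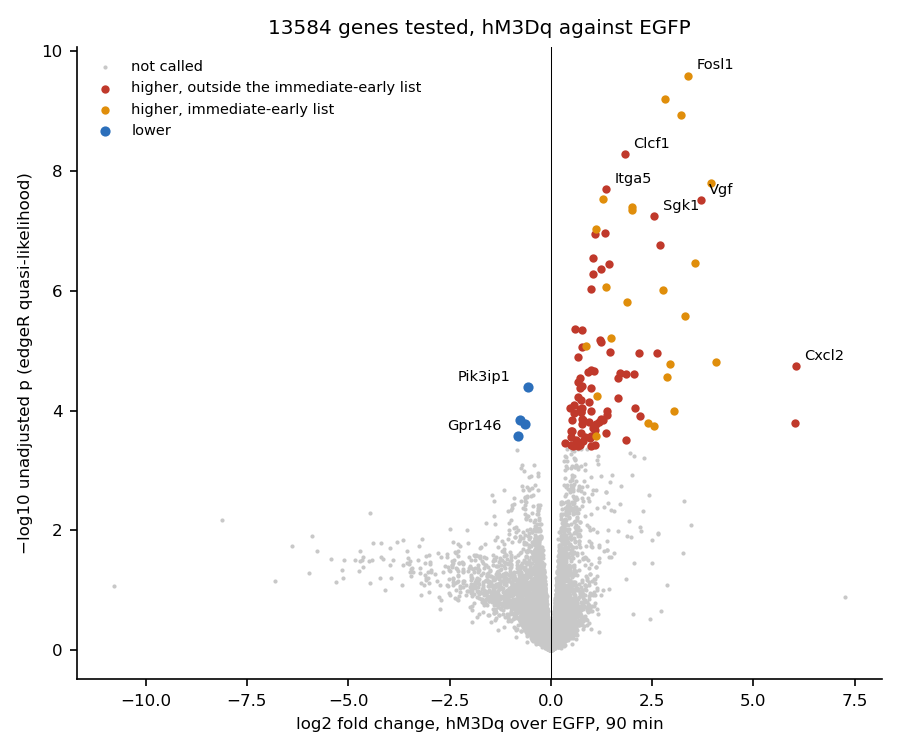
Log2 fold change of hM3Dq over EGFP at 90 min against −log10 of the unadjusted edgeR p for each of 13584 genes. Colours mark the 80 called higher genes outside the immediate-early list, the 23 on it and the 4 called lower; called genes lie almost all on the right, while the widest lower fold changes, in grey, did not pass the test.

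All 103 higher and all 4 lower genes had hM3Dq libraries that did not overlap the EGFP libraries. Over all genes tested, 6.06% had every hM3Dq library above every EGFP library and 9.43% had every hM3Dq library below. The labels do not say what the replicate numbers mark, and correlations between same-numbered libraries were too weak to establish pairs. With the number as a block all the same, 66 genes were higher and 0 lower. Of those 66, 65 were among the 103, and 44 of the 65 lay outside the immediate-early list. Without EGFP 1 the fit called 97 higher and 6 lower genes, 80 and 2 of them shared with the 103 and the 4. Without hM3Dq 1, 2 or 3 it called 51, 51 and 60 higher, and without EGFP 2 or 3 it called 50 and 54. Among the 80 outside the list, 27 kept the call whichever single library was left out, and all 80 stayed above 0.

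The immediate-early response gives the scale for the rest. Fosl1, a partner of Jun in AP-1, had 40.4, 45.6 and 35.7 CPM with hM3Dq, against 4.60, 3.52 and 3.67 CPM with EGFP, a log2 fold change of 3.39 (SE 0.16, adjusted p = 3.51e-06). Atf3, a stress-responsive factor of the same superfamily, had 51.4, 58.7 and 50.7 CPM with hM3Dq against 7.71, 8.07 and 7.46 CPM with EGFP (2.82, SE 0.15). Both sets of libraries were tight and far apart. Nr4a2, an orphan nuclear receptor, was higher by 3.21 (SE 0.18) and Ptgs2, the inducible cyclooxygenase of prostaglandin synthesis, by 3.96 (SE 0.27), with 144, 103 and 148 CPM with hM3Dq against 9.71, 7.44 and 8.80 CPM with EGFP. The 17 list members that were not called ranged from -0.34 to 3.28. Without EGFP 1 some of them were called: Jun at 1.38 (adjusted p = 0.032), Klf4 at 1.46 (0.0149), Maff at 1.12 (0.00865) and Btg2 at 0.76 (0.0105). In the other direction Egr2 and Dusp2 lost the call in that fit, at adjusted p of 0.0731 and 0.0932. At the low end of the 17 stood Ccn2, Klf2 and Ccn1. At the top was Egr3, chosen here after its values were seen, with 21.1, 20.1 and 11.0 CPM with hM3Dq against 2.65, 0.865 and 1.92 CPM with EGFP (adjusted p = 0.201).

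Outside that list, secreted signals had the widest changes. The 11 called genes of this kind, grouped by function after their values were seen, had a median log2 fold change of 1.82. Vgf, the precursor of neuropeptides, had 8.24, 6.40 and 6.07 CPM with hM3Dq, against 0.418, 0.750 and 0.466 CPM with EGFP, a log2 fold change of 3.69 (SE 0.27, adjusted p = 5.18e-05). Clcf1, a cytokine of the CNTF family, was far more abundant, with 190, 206 and 176 CPM with hM3Dq against 47.2, 59.5 and 59.3 CPM with EGFP (1.82, SE 0.11, adjusted p = 1.8e-05). Its fold was thus smaller than that of Vgf and its error smaller too. Lif, which signals through the same gp130 chain, had 21.8, 22.6 and 19.5 CPM with hM3Dq against 7.57, 6.17 and 6.82 CPM with EGFP (1.67, SE 0.27, adjusted p = 0.0151).

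Growth factors formed a second group. Gdnf, which supports dopaminergic neurons, had 11.8, 14.8 and 11.2 CPM with hM3Dq, against 1.11, 3.86 and 3.55 CPM with EGFP (2.19, SE 0.38, adjusted p = 0.0236). EGFP 1 was the lowest Gdnf library, and without it the log2 fold change was 1.81. Inhba, the activin A subunit, had 164, 154 and 147 CPM with hM3Dq against 43.4, 68.3 and 62.1 CPM with EGFP (1.46, SE 0.19). Hbegf, a ligand of the EGF receptor, was higher by 0.99 (SE 0.17, adjusted p = 0.0210) and Pdgfa, the PDGF A chain, by 0.51 (adjusted p = 0.0388, and 0.144 with the block).

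A pair of secreted signals came from almost no counts in the control. Cxcl2, a neutrophil chemokine, had 1.38, 1.48 and 1.79 CPM with hM3Dq, against 0.0465, 0 and 0 CPM with EGFP. That is 84 counts in the hM3Dq libraries together and 1 in the EGFP libraries, a ratio of 87.8 with an exact 95% interval of 15.3 to 3510 for counting error only. Tac1, the substance P precursor, had 83 counts with hM3Dq against 1 with EGFP, a ratio of 86.8 with an interval of 15.2 to 3470; its adjusted p was 0.0271, and 0.0887 with the block. On lists compiled with earlier results of these data known, 3 of 30 tested cytokine and chemokine genes and 5 of 39 growth factor genes were higher. On both lists 0 were lower, with medians of 0.37 and 0.20. Over all genes tested 0.758% were higher and 0.0294% lower, with a median of -0.003. Those shares are the background for the lists below too.

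Leaving out single libraries ended several of these calls. Lif and Gdnf lost it in 4 of the 6 fits that left out 1 library, with adjusted p up to 0.0837 and 0.119. Hbegf lost it in 5, up to 0.116, Tac1 in 6, up to 0.146, and Pdgfa in 6, up to 0.207. Clcf1, Vgf, Inhba and Cxcl2 kept it in all 6.

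**Figure D2:**
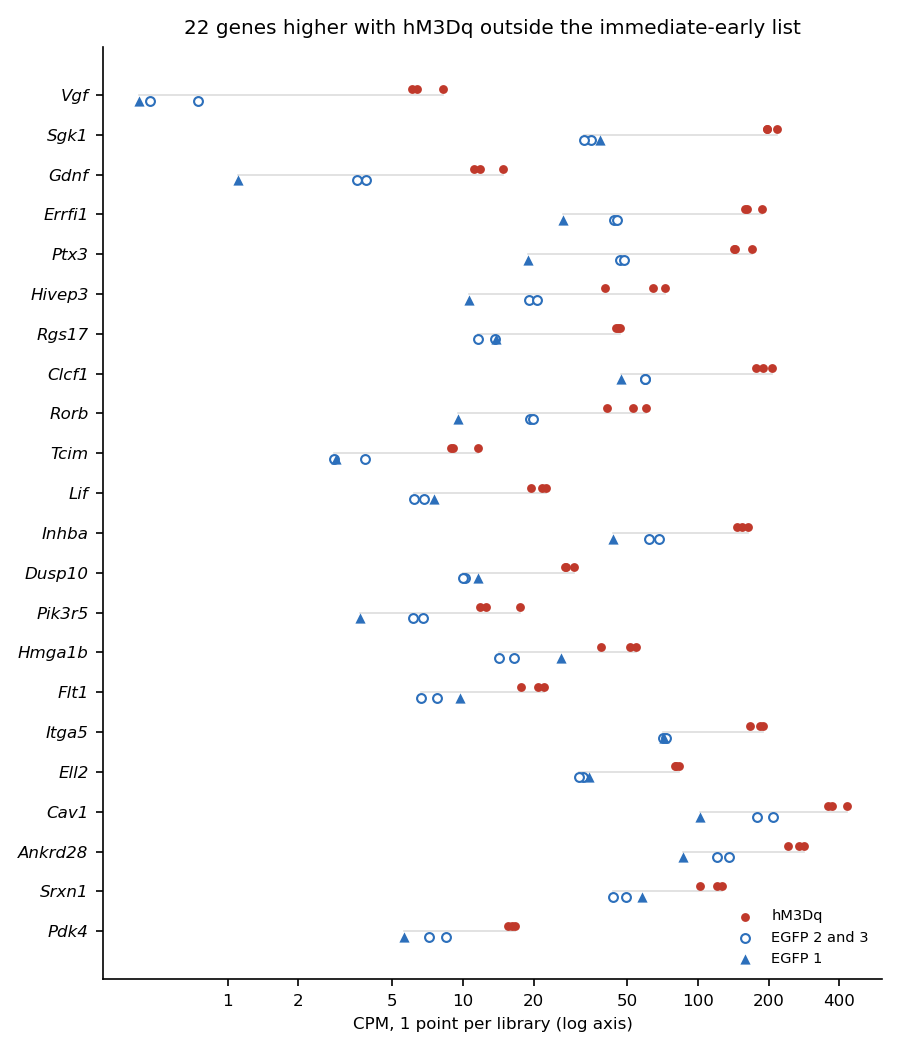
CPM in each library on a log axis for 22 of the 24 called genes outside the immediate-early list with the highest fold change, hM3Dq as red dots and EGFP as blue open circles, with EGFP 1 as a triangle. The 3 hM3Dq libraries lie to the right of the 3 EGFP libraries in every gene because the genes were chosen so. Over all genes tested 6.06% had this order.

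Kinases, phosphatases and inhibitors of signalling made up 9 of the 80, with a median of 1.09. Sgk1, a kinase downstream of PI3K that acts on ion channels and transporters, had 197, 217 and 196 CPM with hM3Dq, against 38.3, 35.0 and 32.8 CPM with EGFP (2.56, SE 0.20, adjusted p = 7.06e-05). Errfi1, which binds and inhibits the EGF receptor, had 162, 188 and 159 CPM with hM3Dq against 26.6, 44.0 and 45.3 CPM with EGFP (2.18, SE 0.28, adjusted p = 0.0043). Dusp10, a phosphatase of p38 and JNK, had 29.7, 27.5 and 27.3 CPM with hM3Dq against 11.6, 10.2 and 10.0 CPM with EGFP (1.44, SE 0.14). These 3 kept the call in every fit that left out 1 library and with the block. Pik3r5, a regulatory subunit of PI3K gamma, was higher by 1.38 (SE 0.24, adjusted p = 0.0228, and 0.0537 with the block). Spry2, an inhibitor of receptor tyrosine kinase signalling, was higher by 1.05 (adjusted p = 0.0303, and 0.107 with the block).

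Genes of the MAP kinase feedback list were higher in 5 of 22 cases, namely Dusp10, Dusp5, Errfi1, Dusp2 and Spry2, with 0 lower and a median of 0.23; with the replicate block 3 were higher. Dusp2, a nuclear phosphatase also on the immediate-early list, lost the call with the block (adjusted p = 0.0622, against 0.029 without it) and in all 6 fits that left out 1 library, at up to 0.153, as did Spry2 in all 6, at up to 0.134. Dusp5, a nuclear phosphatase of ERK that is also on the immediate-early list, had 66.5, 68.4 and 58.3 CPM with hM3Dq against 6.97, 11.5 and 10.7 CPM with EGFP (2.77, SE 0.28). Dusp6, the cytoplasmic phosphatase of ERK, was not called and its groups overlapped, with 68.1, 73.3 and 66.9 CPM with hM3Dq against 144, 41.8 and 33.3 CPM with EGFP. Dusp4, another ERK phosphatase, overlapped too, with 160, 141 and 93.9 CPM with hM3Dq against 159, 40.6 and 33.2 CPM with EGFP. In both genes EGFP 1 lay far above the other control libraries; without it Dusp4 was called, at 1.88 (adjusted p = 0.0217), and Dusp6 was not, at 0.93 (adjusted p = 0.664). Of 23 tested genes of the CREB and cAMP list 3 were higher, Vgf, Noct and Pde10a, with a median of 0.25 that became 0.59 without EGFP 1; Pde10a lost the call with the block (adjusted p = 0.124).

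Few genes were called on the lists for calcineurin and NFAT and for desensitisation and Gq signal transduction. The part of calcium in the response was not tested. Of 16 calcineurin and NFAT genes 1 was higher, Nfatc2, a calcium-regulated transcription factor, with 5.90, 6.81 and 5.68 CPM with hM3Dq against 1.30, 0.750 and 0.991 CPM with EGFP (2.61, SE 0.35, adjusted p = 0.0043). The median of that list was 0.01. Rcan1, an inhibitor of calcineurin often used as a readout of NFAT, had 29.7, 23.8 and 25.6 CPM with hM3Dq against 36.5, 22.0 and 24.6 CPM with EGFP (-0.04, adjusted p = 0.991). Of 34 tested genes for desensitisation and Gq signal transduction, 1 was higher and 0 lower, with a median of -0.10. That 1 was Rgs17, a GTPase activator for G protein alpha subunits, with 45.5, 46.8 and 44.9 CPM with hM3Dq against 13.8, 11.6 and 13.7 CPM with EGFP (1.84, SE 0.27, adjusted p = 0.0075). Rgs2, which acts on Gq itself, was not called at 17.4, 16.1 and 20.5 CPM with hM3Dq against 8.83, 12.5 and 11.2 CPM with EGFP (0.77, adjusted p = 0.182). Rgs17 fell short without EGFP 2, at an adjusted p of 0.0565.

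Genes for matrix, protease control and adhesion were the group in which all 7 called members kept the call with the replicate block. Itga5, the fibronectin receptor subunit, had 190, 184 and 166 CPM with hM3Dq against 71.5, 71.3 and 73.5 CPM with EGFP (1.36, SE 0.10, adjusted p = 4.62e-05). The 3 EGFP values of Itga5 lie close together, EGFP 1 included. Ptx3, a secreted pentraxin, had 142, 170 and 144 CPM with hM3Dq against 19.0, 46.4 and 48.3 CPM with EGFP (2.05, SE 0.29, and 1.73 without EGFP 1). Adamts1, a metalloproteinase of the matrix, was higher by 1.11 (SE 0.20, adjusted p = 0.0272) and Ugdh, which makes the precursor of hyaluronan, by 0.73. Of the 7, 5 kept the call whichever single library was left out, and Adamts1 lost it in 5 of those 6 fits, at an adjusted p of up to 0.138. Of the 43 matrix and protease genes tested, 3 were higher and 1 was lower.

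Receptors and their partners numbered 10, with a median of 1.12. Flt1, a VEGF receptor usually taken as endothelial, had 20.9, 22.2 and 17.6 CPM with hM3Dq, against 9.71, 7.73 and 6.64 CPM with EGFP (1.36, SE 0.26, adjusted p = 0.0351, and 0.0501 with the block). It was the 1 called gene of 6 tested endothelial markers. Cav1, the caveolar scaffold protein, had 373, 357 and 429 CPM with hM3Dq against 102, 179 and 209 CPM with EGFP (1.28, SE 0.23, and 1.04 without EGFP 1). Cd14, a co-receptor for bacterial lipopolysaccharide, had 27.6, 27.4 and 30.0 CPM with hM3Dq against 15.5, 11.4 and 11.3 CPM with EGFP (1.18, adjusted p = 0.0267, and 0.0993 with the block). P2ry2, itself a Gq-coupled receptor for ATP and UTP, had 70.7, 80.3 and 73.7 CPM with hM3Dq against 37.2, 52.5 and 50.8 CPM with EGFP (0.72, adjusted p = 0.0200, and 0.0728 with the block).

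Transcription and chromatin factors beyond the immediate-early list were the most numerous group, 17 genes, with a median of 0.76. Rorb, an orphan nuclear receptor, had 60.2, 40.9 and 53.0 CPM with hM3Dq, against 9.52, 19.4 and 19.8 CPM with EGFP (1.71, SE 0.24, and 1.44 without EGFP 1). Ell2, an elongation factor of RNA polymerase II, had 81.0, 79.6 and 82.8 CPM with hM3Dq against 34.5, 32.6 and 31.1 CPM with EGFP (1.34, SE 0.11, adjusted p = 0.000108). Both groups of Ell2 libraries are tight and well apart. Hivep3, a large zinc finger protein, was higher by 1.86 (adjusted p = 0.0431, and 0.146 with the block). Hmga1 and Hmga1b, higher by 0.99 and 1.37, are near-identical copies whose counts could be split between them and are uncertain. Of the 17, 10 lost the call with the block.

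Metabolic, transport and redox genes (10, median 0.90) were led by Srxn1, which repairs oxidised peroxiredoxins, with 126, 102 and 121 CPM with hM3Dq against 58.0, 43.6 and 49.4 CPM with EGFP (1.24, SE 0.12, adjusted p = 0.000304). Pdk4, which shuts pyruvate out of the mitochondrial cycle, had 16.2, 15.6 and 16.6 CPM with hM3Dq against 5.62, 7.15 and 8.45 CPM with EGFP (1.23, SE 0.22, adjusted p = 0.0256, and 0.0925 with the block). Hk2, a hexokinase of glycolysis, was higher by 0.84 (adjusted p = 0.0388, and 0.0697 with the block). Slc4a7, a sodium bicarbonate cotransporter, was higher by 1.07 (SE 0.15). Among stress genes, Chac1, Ddit3 and Ppp1r15a of the unfolded protein response list were higher by 0.95, 0.63 and 0.48, with 0 of 29 lower and a median of 0.19. Each of the 3 lost the call with the block, at adjusted p of 0.0704, 0.0535 and 0.0764. Dnajb1, a heat shock co-chaperone, was higher by 0.54 (adjusted p = 0.0491, and 0.0764 with the block).

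**Figure D3:**
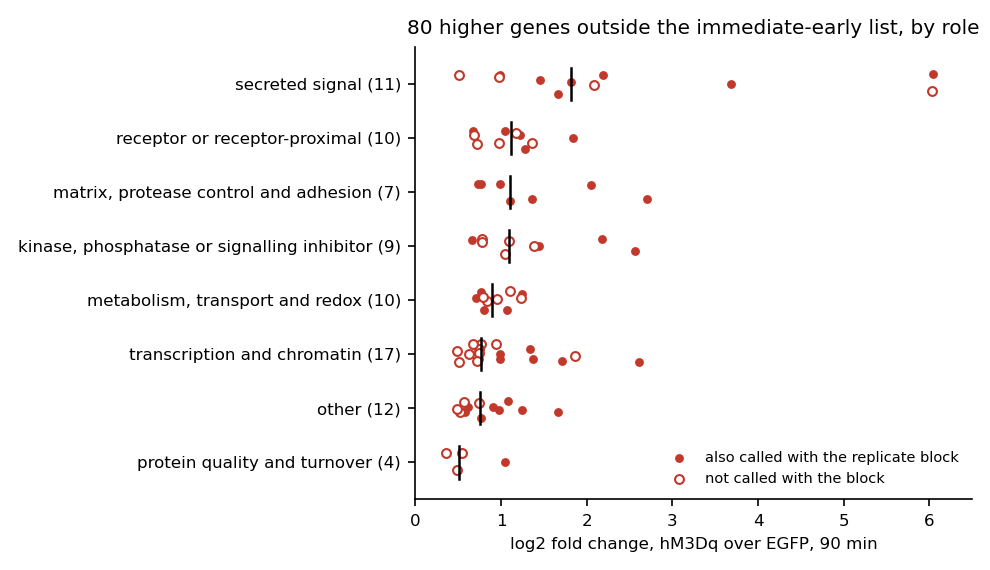
Log2 fold change of hM3Dq over EGFP at 90 min for the 80 called higher genes outside the immediate-early list, 1 dot a gene, by role with the number of genes; black bars are medians. Filled dots kept the call with the replicate block and open dots did not; secreted signals reach highest, and all 7 matrix genes are filled.

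By role, the call held whichever single library was left out in 4 of 11 secreted signals, 3 of 10 receptors and partners, 3 of 9 kinases, phosphatases and inhibitors, 3 of 10 metabolic genes and 3 of 17 transcription and chromatin factors. Over 17 ways of fitting the data, 23 higher genes were called each time, and 11 of them lie outside the immediate-early list. Among the 11 were Fem1b, Itga5, Ell2, Sgk1, Slc4a7, Clcf1, Dusp10, Katnbl1, Errfi1 and Srxn1. Fem1b, a substrate receptor of a ubiquitin ligase, had 199, 190 and 204 CPM with hM3Dq against 87.9, 100 and 106 CPM with EGFP (1.05, SE 0.10). Katnbl1, a regulator of microtubule severing, was higher by 1.08 (SE 0.09). The log2 fold changes of the genes named lay between 1.05 for Fem1b and 2.56 for Sgk1.

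Promoter sequence was read for genes with a RefSeq entry, 65 of the 80 genes outside the list and 18 of the 23 on it, in windows of 250 bases before to 50 after a start. The full cAMP response element TGACGTCA stood in 9.23% of the 65, in 0 of the 18 and in 3.52% of 10757 genes tested with an entry, both strands counted. The shorter TGACG, which the full element contains, was in 40.0% of the 65 and 88.9% of the 18, against 34.3% of all. AP-1 sites TGANTCA were in 13.8% of the 65 and 5.56% of the 18, against 6.31%, and the EGR motif GCGNGGGCG was in 7.69% and 33.3%, against 12.3%. The NFAT core GGAAA was in 66.2% and 44.4%, against 63.2%, and the CArG box bound by SRF in 1.54% and 11.1%, against 1.57%. These shares were not tested, and mean GC content was 61.7% in the 65, 65.5% in the 18 and 60.7% in all. Genes with several starts had several windows, on average 1.42 a gene in the 65 and 1.44 in the 18, against 1.28 in all, and a gene counted if any window held the motif. The 250 bases before the start (RefSeq, GRCm38.p6) are shown for 3 called genes outside the list that hold the full element, in capitals, and for Dusp5, whose capitals mark 2 adjoining CArG boxes. Errfi1 is at chr4:150854820-150855069 on the plus strand, Ell2 at chr13:75707234-75707483 on the plus strand, Flt1 at chr5:147726012-147726261 on the minus strand and Dusp5 at chr19:53528895-53529144 on the plus strand.
Errfi1: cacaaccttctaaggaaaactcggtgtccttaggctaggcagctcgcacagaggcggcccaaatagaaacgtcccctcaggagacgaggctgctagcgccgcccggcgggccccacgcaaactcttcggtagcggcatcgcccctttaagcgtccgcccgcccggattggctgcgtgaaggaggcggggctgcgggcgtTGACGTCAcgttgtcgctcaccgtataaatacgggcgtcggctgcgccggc
Ell2: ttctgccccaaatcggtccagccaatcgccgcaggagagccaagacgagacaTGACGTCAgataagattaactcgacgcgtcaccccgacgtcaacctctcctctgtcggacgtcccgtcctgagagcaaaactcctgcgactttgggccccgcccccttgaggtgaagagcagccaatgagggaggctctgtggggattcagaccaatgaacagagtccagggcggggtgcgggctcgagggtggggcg
Flt1: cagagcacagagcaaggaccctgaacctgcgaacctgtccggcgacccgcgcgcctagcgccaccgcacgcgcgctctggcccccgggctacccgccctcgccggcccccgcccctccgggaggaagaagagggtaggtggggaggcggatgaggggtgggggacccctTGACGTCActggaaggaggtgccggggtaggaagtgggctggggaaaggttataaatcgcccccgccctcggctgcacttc
Dusp5: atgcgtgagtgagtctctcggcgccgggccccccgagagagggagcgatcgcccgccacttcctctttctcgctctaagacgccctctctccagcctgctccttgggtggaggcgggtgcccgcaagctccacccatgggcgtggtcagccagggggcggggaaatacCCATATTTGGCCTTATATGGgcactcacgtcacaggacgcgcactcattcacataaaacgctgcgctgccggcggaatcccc
The element begins 51 bases before the start in Errfi1, 198 in Ell2 and 81 in Flt1, and the first CArG box begins 82 bases before the start in Dusp5.

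On the lowered side 4 genes passed the test. Pik3ip1, which inhibits PI3 kinase at the membrane, had 71.4, 74.7 and 75.5 CPM with hM3Dq, against 115, 111 and 108 CPM with EGFP (-0.56, SE 0.09, adjusted p = 0.0108). Gpr146, an orphan G protein-coupled receptor, had 24.1, 21.4 and 22.0 CPM with hM3Dq against 49.6, 36.9 and 34.7 CPM with EGFP (-0.81, SE 0.16, adjusted p = 0.0388). Mtss1, an actin-binding protein that bends membranes, had 66.2, 69.8 and 58.7 CPM with hM3Dq against 136, 101 and 99.3 CPM with EGFP (-0.76, SE 0.13, adjusted p = 0.0256). In Gpr146 and Mtss1 EGFP 1 was the highest library by a margin, and without it their log2 fold changes were -0.62 and -0.58. Mmp11, a secreted metalloproteinase, had 15.9, 17.0 and 15.8 CPM with hM3Dq against 27.5, 26.6 and 23.3 CPM with EGFP (-0.63, SE 0.11, adjusted p = 0.0274).

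None of the 4 kept the call with the replicate block, where adjusted p was 0.0524 for Pik3ip1, 0.0884 for Gpr146, 0.0887 for Mtss1 and 0.102 for Mmp11. The edgeR fit with the block called 0 genes lower and had 280 lower at an unadjusted p under 0.05; DESeq2, without a block, called 35. Pik3ip1 and Mtss1 were called lower in 10 of 17 fits of the data, and Gpr146 and Mmp11 in 8. Single libraries ended the calls: without hM3Dq 1, 2 or 3 or EGFP 2 the adjusted p reached 0.0994 for Pik3ip1, 0.133 for Mtss1, 0.172 for Mmp11 and 0.206 for Gpr146, and Mmp11 and Gpr146 also lost it without EGFP 1, at 0.0951 and 0.0797.

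**Figure D4:**
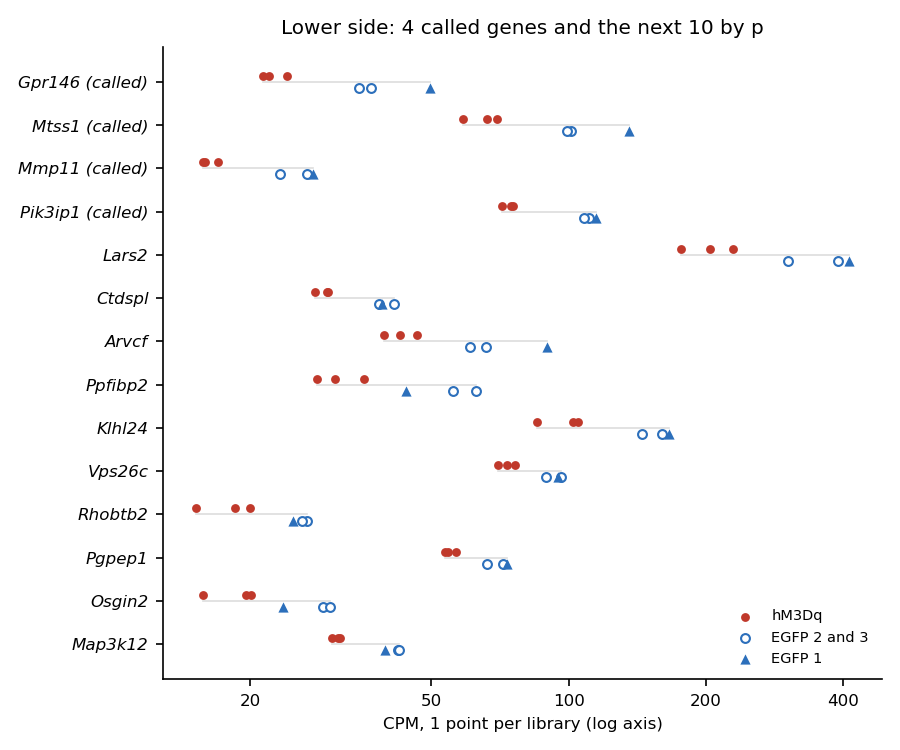
CPM in each library on a log axis for the 4 called lower genes and the 10 lower genes with the next smallest p, hM3Dq as red dots and EGFP as blue open circles, with EGFP 1 as a triangle. All 14 genes, picked by p, have groups that do not overlap. Over all genes tested 9.43% had every hM3Dq library below every EGFP library. The distances are short beside those of the higher genes.

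The 10 lower genes with the next smallest p ran from -0.83 to -0.32. Lars2, the mitochondrial leucyl-tRNA synthetase, had 176, 229 and 204 CPM with hM3Dq, against 413, 391 and 303 CPM with EGFP (adjusted p = 0.0548). Arvcf, a catenin of cell junctions, had 42.7, 46.6 and 39.3 CPM with hM3Dq against 89.7, 66.0 and 60.7 CPM with EGFP (-0.72, adjusted p = 0.0836). Ppfibp2, a liprin scaffold protein, had 30.7, 35.6 and 28.0 CPM with hM3Dq against 43.9, 62.6 and 55.7 CPM with EGFP (-0.74, adjusted p = 0.0875, and 0.0470 without EGFP 1). In Ppfibp2 and Osgin2 EGFP 1 was the control library nearest to hM3Dq, the reverse of Gpr146. Klhl24, an adaptor of a ubiquitin ligase, had 102, 105 and 85.2 CPM with hM3Dq against 166, 160 and 145 CPM with EGFP (-0.66, adjusted p = 0.0946). Ctdspl, Vps26c, Rhobtb2, Pgpep1, Osgin2 and Map3k12 made up the rest.

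Lists that lean down show how little passed. Of 26 genes on a list for FoxO and PI3 kinase signalling, as compiled here, 1 was lower, Pik3ip1. In that list 20 were below 0, against 6926 of all 13584 genes tested. The list median was -0.20, and -0.23 without EGFP 1. Irs1, the insulin receptor substrate and a member of that list, had 48.2, 60.7 and 43.2 CPM with hM3Dq, against 64.9, 105 and 86.9 CPM with EGFP (-0.72, adjusted p = 0.142, and 0.0348 without EGFP 1). Foxo1 and Foxo3 stood at -0.50 and -0.37 with adjusted p of 0.615 and 0.63. Of 19 tested genes on a list of Notch and BMP pathway members and targets, 0 were called and 15 were below 0, with a median of -0.19. The 32 cell cycle genes were all below 0, with a median of -1.41, and 0 were called; without EGFP 1 the median was 0.21. The fibroblast and mural list behaved likewise, at -0.46 with EGFP 1 and 0.23 without it. The values of EGFP 1 on these lists are given above; their part in the called genes was not tested beyond the fits without it.

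The higher genes were next set against the other receptors at 90 min, in tests that use the same hM3Dq libraries but no EGFP library. Of the 80 genes outside the list, 43 were higher with hM3Dq than with rM3Ds, where 0.567% of all genes were, and 52 were higher than with hM4Di, where 0.751% were. In 30 genes both differences passed and in 15 neither did. The medians were 0.77 over rM3Ds and 0.99 over hM4Di, against 0.99 over EGFP. Since the genes were chosen for high values in these hM3Dq libraries, which all 3 comparisons share, the counts are a description and no separate evidence.

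Single genes parted from that pattern. Vgf was high with the Gs receptor too, at 8.24, 6.40 and 6.07 CPM with hM3Dq against 7.25, 6.32 and 7.28 CPM with rM3Ds, a difference of 0.04 (SE 0.23, adjusted p = 0.956), but hM4Di libraries had 1.11, 1.12 and 1.59 CPM. Adamts1 gave a difference of -0.01 between hM3Dq and rM3Ds (SE 0.20, adjusted p = 0.985). Its means were 60.5 CPM with hM3Dq and 63.0 CPM with rM3Ds over 3 libraries each. Cd14 gave a difference of 0.20 (SE 0.21), with 27.6, 27.4 and 30.0 CPM with hM3Dq against 17.4, 31.5 and 27.6 CPM with rM3Ds. For Cd14 rM3Ds 1 lay below every hM3Dq library, and the higher values came from rM3Ds 2 and rM3Ds 3, which stand apart. Nfatc2 went the other way, with 5.90, 6.81 and 5.68 CPM with hM3Dq against 0.690, 0.451 and 0.436 CPM with rM3Ds (3.57, adjusted p = 0.00128). Flt1 was higher than with rM3Ds by 2.05 (adjusted p = 0.00457) and Itga5 by 1.16 (adjusted p = 0.000337). Of the 11 secreted signals 3 were higher than with rM3Ds and 7 higher than with hM4Di. The lower genes Pik3ip1, Mtss1, Mmp11 and Gpr146 were also lower than with rM3Ds, by -0.52, -0.72, -0.59 and -0.83, with adjusted p of 0.0228, 0.0389, 0.0473 and 0.0397. Against hM4Di Pik3ip1 was lower by -0.48 (adjusted p = 0.0266), while Mtss1, Mmp11 and Gpr146 stood at -0.24, -0.44 and -0.61, with adjusted p of 0.567, 0.117 and 0.115. These 4 too were chosen for their values in the same hM3Dq libraries, so the differences are a description.

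At 3 days none of the called genes passed the test in the fit of all 12 libraries. Of the 103 genes 0 were called against mCherry, where 1 of 13391 genes was, or 0.00747%, and 49 were above 0, with a median of -0.03. The 3-day cells are compared with their own control, and 1318 genes had an unadjusted p under 0.05, while DESeq2 called 66. Without EGFP 1 in the fit 81 genes were called, and whether any of the 103 were among them was not examined. Nr4a1 had 13.5, 14.7 and 14.2 CPM with hM3Dq, against 6.99, 8.68 and 6.23 CPM with mCherry (0.98, adjusted p = 0.13). Clcf1 had 22.0, 22.8 and 21.1 CPM with hM3Dq at 3 days, against 38.7, 31.7 and 32.5 CPM with mCherry (-0.61, adjusted p = 0.162). Sgk1 had 55.3, 63.2 and 66.2 CPM with hM3Dq against 50.0, 71.3 and 81.1 CPM with mCherry (-0.10, adjusted p = 0.812). The test of the difference between times called 41 of the 103 as higher at 90 min, 28 of them outside the list, where 0.381% of all genes were; it uses the 90 min contrast that chose them. It gave 2.43 for Clcf1, 2.65 for Sgk1, 1.38 for Itga5 and 1.64 for Errfi1. The gene called at 3 days was Egr3, listed at 0 in all 3 hM3Dq libraries against 3.20, 3.98 and 5.16 CPM with mCherry, which could be a failed estimate of the counts.

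**Figure D5:**
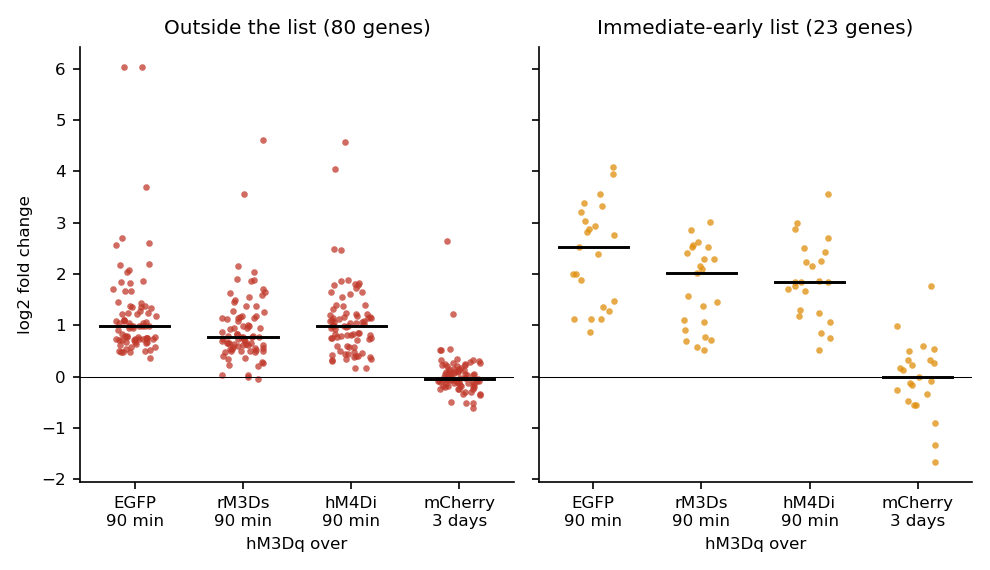
Log2 fold change of hM3Dq over 4 comparison groups, EGFP, rM3Ds and hM4Di at 90 min and mCherry at 3 days, for the 80 called genes outside the immediate-early list and the 23 on it, 1 dot a gene with medians as bars. The genes were chosen on the EGFP column; medians stay above 0 over rM3Ds and hM4Di and are -0.04 and 0 at 3 days.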

How the data were processed

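Per the labels' protocols, poly-A enriched RNA was sequenced from cultured cortical astrocytes. Salmon 1.8.0, fastp 0.23.4 and the genome build mm39 are listed in the submitters' processing notes without roles. The values the authors deposited are estimated counts per gene, not normalised; how transcripts were summed to genes, and whether strand was used, is not given in the sources used here. Estimated counts were rounded before testing. Gene symbols came from a RefSeq table of GRCm38 by Entrez identifier, which matched 21978 of 22078, or 99.55%; the rest held 0.034% of counts. Since that build differs from mm39, no gene coordinates are taken from it; promoter windows carry their own GRCm38.p6 coordinates.

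Comparisons used quasi-likelihood tests in edgeR 4.0.16 under R 4.3.3, with TMM factors, robust dispersions, edgeR's default low-count filter and adjustment by Benjamini and Hochberg's method. The 12 libraries at 90 min were fitted together with 8 residual degrees of freedom, and the 12 hM3Dq and control libraries of both times likewise. Alternatives were DESeq2 1.42.0, limma-voom (limma 3.58.1), RLE factors, other filters, a replicate block, fits that dropped EGFP 1, rM3Ds 2 and rM3Ds 3 or gave them a term, the 6 libraries alone, and each library left out. A floor of 3 counts was 0.139 to 0.175 CPM in EGFP libraries. Floors and counting intervals cover counting error only. CPM used library totals without TMM factors, and the test was tried on simulated counts.

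Same-numbered hM3Dq and EGFP libraries had correlations of deviations of 0.133, 0.162 and 0.123, and those with different numbers -0.17 to 0.042. Yet hM3Dq 1 and rM3Ds 3, with different numbers, reached 0.215, so values of this size do not establish pairs. In same-numbered pairs with rM3Ds, with hM4Di and at 3 days, 1 or more fell under 0.1. The block nonetheless covered every library of a fit. The labels do not say what a number marks.

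Values per library are given for the 24 called higher genes outside the immediate-early list with the highest fold change (mean log2 CPM of at least 1, groups not overlapping), every called lower gene, the next 10 lower genes by p, the 2 called members with smallest p of each of 35 lists and the 6 called immediate-early genes with smallest p. Results of 2 of these genes are not reported here. Any other gene was named after its values were seen, and so were the roles used to group genes. The lists, the rule and the alternatives were chosen with earlier results of these data known.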

Additional observations from a re-analysis of the deposited data

Results flagged for a closer look

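Tests of the difference itself called genes between hM3Dq and the other receptors and between the times. Against rM3Ds 91 genes were called, with log2 differences of 2.86 for Fosl1, 2.15 for Atf3, 1.55 for Clcf1 and 1.16 for Itga5. Against hM4Di 109 genes were called, with 2.99 for Fosl1, 2.50 for Atf3, 1.89 for Clcf1 and 2.71 for Nr4a2. The effect at 90 min minus the effect at 3 days was called for 53 genes, with 4.02 for Ptgs2, 3.32 for Dusp5, 2.65 for Sgk1 and 2.43 for Clcf1. The comparisons share the hM3Dq libraries at 90 min, and rM3Ds 2, rM3Ds 3 and EGFP 1 stand apart from the other libraries. The genes named were called against EGFP with the same hM3Dq libraries, so their values here are a description and no separate evidence.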

How the results depend on the processing

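Against 103 higher and 4 lower genes, DESeq2 called 197 and 35, the replicate block 66 and 0, the 6 libraries alone 73 and 2, those 6 with the block 28 and 0, a term for EGFP 1, rM3Ds 2 and rM3Ds 3 gave 184 and 22, and the fit without those 3 libraries 134 and 9. Leaving out 1 library gave 50 to 97 higher and 0 to 6 lower genes; only without EGFP 1 was the higher count above 60. Against rM3Ds (91 genes) the counts were 463 with DESeq2, 53 with the block, 25 without the 3 libraries, 138 with the 6 libraries alone and 28 to 590 with 1 library left out, the 590 without rM3Ds 1. Against hM4Di (109 genes) they were 424, 61, 300 without the 3 libraries and 38 to 106 with 1 library left out. At 3 days (1 gene) they were 66 with DESeq2, 2 with RLE factors, 2 with no filter, 2 with a stricter filter, 0 with limma-voom, 81 without EGFP 1 in the fit and 0 to 1 with 1 library left out. For the difference between times (53 genes) they were 202 with DESeq2, 170 without EGFP 1 and 28 to 170 with 1 library left out, with 78 without mCherry 3.

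The log2 fold change of Gfap turned to 0.21 without the 3 libraries and ran from -2.33 to 0.21 with 1 library left out; that of Mki67 turned to 0.12, to 0.04 with the term, and ran from -2.90 to 0.13. Both are above 0 without EGFP 1. The cause was not tested. The 49 called genes picked by the naming rule kept call and direction in 590 gene and setting pairs and lost the call in 193, with 0 reversed. Among the genes named the block changed no call other than those given beside the results. Both groups have 3 libraries, so small changes on either side may have been missed. Near-identical copies, overlapping genes and antisense pairs are uncertain.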

Other observations

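Cxcl5, a chemokine, was the gene lowest with hM3Dq against rM3Ds, with means over 3 libraries of 2.09 CPM with hM3Dq, 19.5 CPM with rM3Ds and 1.91 CPM with EGFP (log2 difference -3.17 from rM3Ds, edgeR adjusted p = 0.038). Gata2, a transcription factor, averaged 4.56 CPM with hM3Dq and 12.8 CPM with rM3Ds (-1.44, edgeR adjusted p = 0.0426), with 8.49 CPM with EGFP. Gadd45a, a stress-induced growth arrest gene, averaged 28.4 CPM with hM3Dq and 44.3 CPM with hM4Di (-0.59, edgeR adjusted p = 0.0119), with 36.3 CPM with EGFP. Nuak1, a kinase of the AMPK family, was lower with hM3Dq at 90 min relative to its effect at 3 days, by -0.64 (edgeR adjusted p = 0.0368), averaging 55.7 CPM with hM3Dq and 92.1 CPM with EGFP at 90 min, and 105 CPM with hM3Dq and 111 CPM with mCherry at 3 days.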
